A study of Homo sapiens with 10 samples.

Results

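The clade B serpins were followed through both RNA-seq experiments of this series. They were taken by symbol, as the rows named SERPINB1 to SERPINB9 and SERPINB13, and all 10 were found among the 26256 rows of one count table and the 55736 rows of the other. The 3 other clade B genes were SERPINB10, SERPINB11 and SERPINB12, and none of them had enough reads to be tested in either experiment. The members lie in 2 groups. In hg19 coordinates, SERPINB5, SERPINB13, SERPINB4, SERPINB3, SERPINB7, SERPINB2 and SERPINB8 follow each other at 18q21 on chromosome 18 from 61144144 to 61656608, a span of 512 kb, and SERPINB1, SERPINB9 and SERPINB6 follow each other at 6p25 on chromosome 6 from 2832566 to 2972399, a span of 140 kb.

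Serpins are proteins that trap a protease by a large change of shape after the protease has cut an exposed loop. Clade B members lack a classical signal peptide and mostly stay inside the cell, where they protect it from its own lysosomal, granule or pericellular proteases. Several of the 18q21 members are known from squamous and mammary epithelium, and the 6p25 members are known for inhibiting the granule proteases of leukocytes.

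All libraries came from MCF10A, an immortalized and non-transformed line of human mammary epithelial cells, and poly(A) RNA was sequenced. One experiment held 2 libraries of parental, untreated cells (MCF10A) and 2 libraries of cells that carried the G12V HRas oncogene (G12V), introduced by lentiviral transduction of an overexpression vector and selected with hygromycin. The other held 3 libraries of parental cells kept for 4 h in 10 µM Nutlin-3a, a small molecule that blocks the binding of MDM2 to p53, and 3 libraries kept for 4 h in the vehicle, DMSO. The labels call the libraries biological replicates, and the number of independent transductions behind the G12V cells was not given in the sources used here, so the p-values measure the spread between these libraries only.

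Gene counts summed to between 21538593 and 23683975 in the untreated experiment and to between 15453226 and 17378734 in the Nutlin-3a experiment. Counts are reported with CPM, the count scaled to a library of fixed size after TMM normalization, and genes are called differentially expressed (DE) where edgeR's quasi-likelihood test over all tested genes gave an adjusted p under 0.05 and the log2 fold change was beyond 0.5 in either direction. HRAS, the gene carried by the vector, was 72.6 and 65.9 CPM in the MCF10A libraries and 631 and 515 CPM in the G12V libraries, a log2 fold change of 3.05. MDM2, a target gene of p53, was between 102 and 122 CPM in DMSO and between 509 and 814 CPM in Nutlin-3a, a log2 fold change of 2.54. All 5 epithelial markers examined (KRT5, KRT14, KRT17, CDH1 and EPCAM) were well above 0 in MCF10A, with a summed level between 6200 and 7680 CPM, and all 5 were DE and lower in G12V, where the sum was between 944 and 1229 CPM. Of 4 mesenchymal markers 3 were DE and higher in G12V (ZEB1 by 2.98, CDH2 by 2.01 and SPARC by 1.27 on the log2 scale), VIM had a log2 fold change of 0.71 that did not pass the test, and their sum went from between 893 and 1082 CPM to between 1537 and 2022 CPM. TP63, a transcription factor of basal epithelium, went from 119 and 214 CPM to 0.214 and 0.0892 CPM. The part of these shifts in the results below was not tested, and in bulk RNA fewer cells that express a gene and less RNA per cell cannot be told apart.

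In the comparison of G12V with MCF10A, the clade B serpins moved in opposite directions, also within the 18q21 cluster. SERPINB5, SERPINB13 and SERPINB2 were lower in G12V, and SERPINB4 and SERPINB1 were higher. These 5 DE genes stand among 10 tested members, while 11.0% of the 14376 tested genes were DE, 5.01% higher and 5.95% lower. The MCF10A and G12V libraries did not overlap for 8 members, 4 higher and 4 lower, and they did not overlap for 54.8% of all tested genes, 27.5% higher and 27.4% lower. The median absolute log2 fold change was 1.71 over the members and 0.36 over all tested genes. When MCF10A replicate 1 was left out, 0 members and 0 genes of the whole table were DE with edgeR, although 4 members and 2830 genes had an unadjusted p under 0.05. The MCF10A arm is then a single library, assumed to vary like the G12V pair, which alone gives the spread. The same holds without MCF10A replicate 2, where members were still called, and the reason for the loss was not tested. This loss of calls took in the whole table, so it does not single out any member. Without MCF10A replicate 1 the log2 fold changes were -1.56 for SERPINB5, -5.63 for SERPINB13, -1.90 for SERPINB2, 5.20 for SERPINB4 and 1.63 for SERPINB1.

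**Figure D1:**
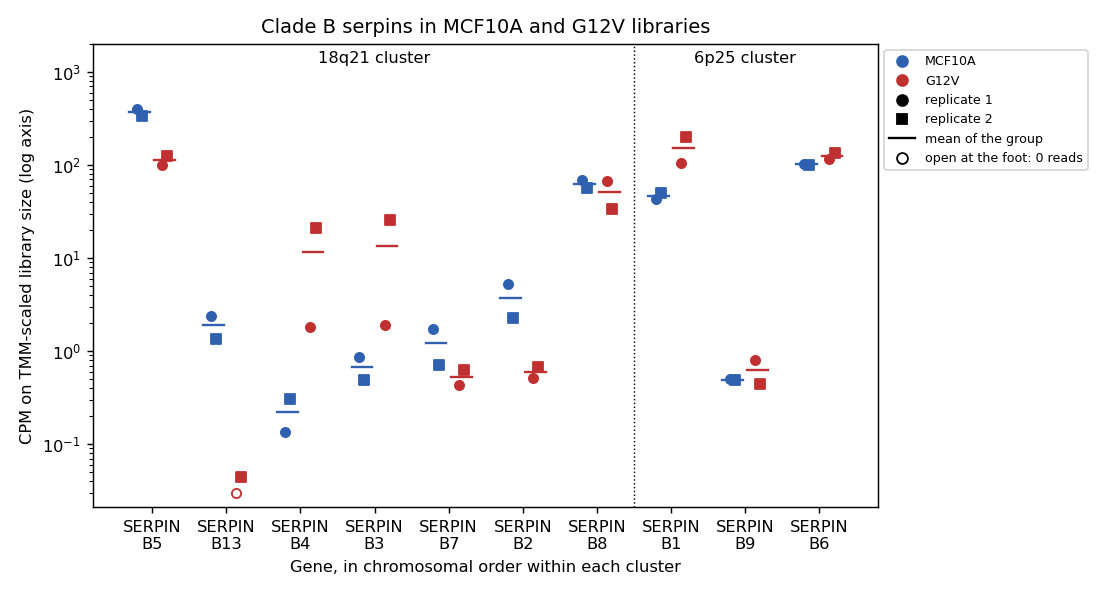
Level of each member in the 4 libraries of the untreated experiment. The vertical axis is CPM on a log scale, points are libraries (circles for replicate 1, squares for replicate 2), lines are the means of the groups, and the open circle at the foot marks the G12V library with 0 reads of SERPINB13. SERPINB5, SERPINB13 and SERPINB2 sit lower in both G12V libraries, SERPINB1 sits higher, and the 2 G12V libraries are far apart for SERPINB3 and SERPINB4.

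SERPINB5, known as maspin, does not act as a classical protease inhibitor and was described as a tumor suppressor of mammary epithelium. It had 8914 and 7705 reads in MCF10A against 2353 and 2839 in G12V, or 405 and 339 CPM against 101 and 127 CPM. Both G12V libraries were thus well below both MCF10A libraries, and the difference between groups exceeded the spread within them. The log2 fold change was -1.71 (SE 0.22, edgeR adjusted p = 0.0082), a level 3.28-fold lower in G12V. It stayed between -1.89 and -1.56 when any library was left out.

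SERPINB5 was also the most abundant member. It made up 64.2% and 61.6% of the reads of all 10 members in MCF10A and 25.6% and 23.2% in G12V. With this fall, the 18q21 cluster went from 76.7% and 72.7% of the members' reads to 44.04% and 38.3%. On the scale of CPM per kb of transcript, the summed level of the 18q21 members was 182 and 151 in MCF10A and 62.0 and 87.1 in G12V, and that of the 6p25 members was 96.4 in both MCF10A libraries and 130 and 184 in G12V.

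The promoter of SERPINB5 is shown as that of the member with the highest level in MCF10A. It comes from RefSeq (GRCh38.p14, chr18:63476708-63477007, plus strand, 250 bases before the start of transcription and 50 after), and the capitals mark a match to TGANTCA. This pattern is called the AP-1 motif here. It allows any central base and is thus looser than the sequence that FOS and JUN dimers bind.
SERPINB5: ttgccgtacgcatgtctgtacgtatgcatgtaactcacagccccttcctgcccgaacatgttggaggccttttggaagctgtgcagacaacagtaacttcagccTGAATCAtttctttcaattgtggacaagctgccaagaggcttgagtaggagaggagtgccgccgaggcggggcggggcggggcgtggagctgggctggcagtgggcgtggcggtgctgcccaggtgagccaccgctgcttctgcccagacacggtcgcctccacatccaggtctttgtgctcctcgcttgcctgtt
This window holds 16 CG dinucleotides, the most of any promoter at 18q21.

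SERPINB13, also called headpin, inhibits the lysosomal cysteine proteases cathepsin L and cathepsin K and is known from stratified epithelium. It had 53 and 31 reads in MCF10A against 0 and 1 in G12V, or 2.41 and 1.37 CPM against 0 and 0.045 CPM. The gene was therefore at a low level in MCF10A and close to absent from the G12V libraries at this depth. Summed over libraries, 84 reads stood against 1 read, a depth-scaled ratio of 86.1 with an exact 95% interval of 15.03 to 3440 that covers counting error only. The fitted log2 fold change was -6.11 (SE 0.86, edgeR adjusted p = 0.0102). Its size depends on the prior count and on the library kept. It was -4.16 at the largest prior count tried, and it was -8.42 without G12V replicate 2 and -5.24 without G12V replicate 1.

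The promoter of SERPINB13 (GRCh38.p14, chr18:63587093-63587392, plus strand) also holds an AP-1 motif, shown in capitals.
SERPINB13: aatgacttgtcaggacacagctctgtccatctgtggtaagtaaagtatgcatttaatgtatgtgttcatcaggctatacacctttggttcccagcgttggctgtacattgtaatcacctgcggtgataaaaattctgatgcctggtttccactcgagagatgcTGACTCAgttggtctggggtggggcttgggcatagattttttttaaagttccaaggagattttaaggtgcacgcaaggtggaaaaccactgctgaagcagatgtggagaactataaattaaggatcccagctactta
The window has 4 CG dinucleotides, against a median of 14 over the 35116 promoters of the RefSeq table.

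SERPINB2, the second inhibitor of plasminogen activators to be named, blocks urokinase. It had 115 and 51 reads in MCF10A against 12 and 15 in G12V, or 5.23 and 2.25 CPM against 0.513 and 0.669 CPM. The MCF10A libraries differed from each other by more than those of most genes, with a within-group range at the 95.01th percentile, but both were above both G12V libraries. The log2 fold change was -2.65 (SE 0.55, edgeR adjusted p = 0.0336), and leaving out replicate 2 of MCF10A gave -3.14, whereas leaving out replicate 1 gave -1.90.

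The window of SERPINB2 (GRCh38.p14, chr18:63887455-63887754, plus strand) is shown with its AP-1 motif in capitals.
SERPINB2: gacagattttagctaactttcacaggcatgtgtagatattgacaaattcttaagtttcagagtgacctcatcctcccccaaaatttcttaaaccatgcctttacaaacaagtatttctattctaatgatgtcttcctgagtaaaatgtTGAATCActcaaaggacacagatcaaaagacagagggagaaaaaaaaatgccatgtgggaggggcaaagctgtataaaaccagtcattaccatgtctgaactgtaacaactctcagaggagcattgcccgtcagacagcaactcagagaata
It holds 1 CG dinucleotide and, further along, the letters TATAAA.

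SERPINB3 and SERPINB4 are the squamous cell carcinoma antigens, neighbors on the minus strand. SERPINB3 inhibits cathepsins of the papain family, and SERPINB4 inhibits cathepsin G and mast cell chymase. SERPINB4 had 3 and 7 reads in MCF10A and 43 and 475 in G12V, or 0.136 and 0.308 CPM against 1.84 and 21.2 CPM. SERPINB3 had 19 and 11 reads in MCF10A and 45 and 569 in G12V, or 0.864 and 0.484 CPM against 1.92 and 25.4 CPM. For both genes each G12V library was above each MCF10A library, but G12V replicate 2 held most of the reads.

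The log2 fold change of SERPINB4 was 5.65 (SE 1.33, edgeR adjusted p = 0.0489), larger than for all but 41 tested genes. That of SERPINB3 was 4.33 (SE 1.22, edgeR adjusted p = 0.0803), which did not pass the threshold. Without G12V replicate 2 these values were 3.01 and 1.51, and without G12V replicate 1 they were 6.53 and 5.22. The range between the 2 G12V libraries was 3.51 on the log2 scale for SERPINB4 and 3.71 for SERPINB3, and each was at the 99.9th percentile of all tested genes. The call of SERPINB4 varied with the method. Its adjusted p was 0.0505 with RLE factors, 0.0506 with upper-quartile factors and 0.0532 with no filter on low counts, while it was 9.1e-08 with DESeq2 and 0.000118 with edgeR's exact test.

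The 2 genes are near copies. Their coding sequences were 95.2% identical, whereas the other 44 pairs of members had a median identity of 56.5% and at most 72.7%. Of the 1658 stretches of 50 bases in each canonical transcript, 413 (24.9%) were found in both, and no other member shared any. How the counting placed reads that match both copies was not given in the sources used here, so the split of reads between them is uncertain. Counted together as 1 row, a choice made after seeing the data, they had a log2 fold change of 4.80 (SE 1.20, edgeR adjusted p = 0.0569), and together they made up 0.158% and 0.144% of the members' reads in MCF10A and 0.957% and 8.55% in G12V.

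The likeness extends to the promoters, which are printed to show it. Both are from RefSeq (GRCh38.p14, minus strand, chr18:63661844-63662143 for SERPINB3 and chr18:63644207-63644506 for SERPINB4), and capitals mark the bases that differ.
SERPINB3: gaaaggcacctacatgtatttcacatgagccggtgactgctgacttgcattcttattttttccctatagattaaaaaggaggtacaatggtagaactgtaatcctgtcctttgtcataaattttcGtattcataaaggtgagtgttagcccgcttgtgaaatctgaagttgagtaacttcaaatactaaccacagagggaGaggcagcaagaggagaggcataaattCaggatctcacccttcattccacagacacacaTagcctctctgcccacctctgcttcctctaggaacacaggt
SERPINB4: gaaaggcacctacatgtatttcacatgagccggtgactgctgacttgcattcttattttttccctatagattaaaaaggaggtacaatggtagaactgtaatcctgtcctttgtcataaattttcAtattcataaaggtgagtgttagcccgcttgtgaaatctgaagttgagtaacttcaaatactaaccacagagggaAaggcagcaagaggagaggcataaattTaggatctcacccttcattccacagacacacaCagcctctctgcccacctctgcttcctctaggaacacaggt
Aligned over 300 columns they differed by 4 substitutions and no gap, an identity of 98.7%. Neither window holds the AP-1 motif.

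The other 2 members at 18q21 did not pass the test. SERPINB7, known as megsin and mutated in a palmoplantar keratosis, had 38 and 16 reads in MCF10A and 10 and 14 in G12V, or 1.73 and 0.705 CPM against 0.428 and 0.624 CPM. The groups did not overlap, but the difference was within the spread that the test allows (log2 fold change -1.20, SE 0.58, 95% interval -2.62 to 0.22, edgeR adjusted p = 0.268). The value rested on which MCF10A library was kept, since leaving out replicate 1 of MCF10A gave -0.40 and leaving out replicate 2 gave -1.71. SERPINB8, an inhibitor of the proprotein convertase furin, had 1502 and 1275 reads in MCF10A and 1587 and 761 in G12V, or 68.3 and 56.2 CPM against 67.9 and 33.9 CPM. One G12V library was like the MCF10A libraries and the other was below them, and the log2 fold change was -0.29 (SE 0.34, 95% interval -1.12 to 0.54, edgeR adjusted p = 0.676).

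At 6p25, SERPINB1 was the one DE member. SERPINB1 inhibits neutrophil elastase, cathepsin G and proteinase 3, although it is made by many cell types. It had 948 and 1134 reads in MCF10A against 2439 and 4515 in G12V, or 43.1 and 49.9 CPM against 104 and 201 CPM. Both G12V libraries were above both MCF10A libraries, the second by more. The log2 fold change was 1.72 (SE 0.33, edgeR adjusted p = 0.0268), a level 3.28-fold higher in G12V, and it was 1.16 without G12V replicate 2 and 2.11 without G12V replicate 1.

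The promoter of SERPINB1 (GRCh38.p14, chr6:2841814-2842113, minus strand) is shown with every CG in capitals, for contrast with the windows at 18q21.
SERPINB1: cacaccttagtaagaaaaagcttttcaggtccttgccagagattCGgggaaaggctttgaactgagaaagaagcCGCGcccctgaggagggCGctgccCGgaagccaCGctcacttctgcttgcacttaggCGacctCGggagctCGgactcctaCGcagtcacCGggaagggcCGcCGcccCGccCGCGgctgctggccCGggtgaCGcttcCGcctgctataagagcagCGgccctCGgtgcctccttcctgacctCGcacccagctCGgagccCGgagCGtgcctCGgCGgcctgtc
It holds 27 CG dinucleotides and no AP-1 motif.

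SERPINB6, an inhibitor of cathepsin G and thrombin, was abundant in all 4 libraries. It had 2283 and 2273 reads in MCF10A against 2689 and 3013 in G12V, or 104 and 100 CPM against 115 and 134 CPM. The groups did not overlap, and the difference did not pass the test (log2 fold change 0.29, SE 0.18, 95% interval -0.14 to 0.72, edgeR adjusted p = 0.381). SERPINB9, the inhibitor of granzyme B, was near the limit of detection with 11 and 11 reads in MCF10A and 19 and 10 in G12V, and its log2 fold change was 0.35 (SE 0.50, 95% interval -0.87 to 1.58, edgeR adjusted p = 0.735). Among markers of immune cells, which are known to make SERPINB1 and SERPINB9, 3 of 6 were tested and 1 was DE, with CD68 higher by 2.17 on the log2 scale. PTPRC and CD3E, 2 of the 6, had at most 3 reads in each library. ITGAM had 4 and 9 reads in MCF10A against 3 and 1 in G12V and was not tested. CD14 and LYZ had log2 fold changes of 0.16 and -0.10 and did not pass the test. The summed level of the 6 was between 32.2 and 51.1 CPM in MCF10A and between 60.8 and 114 CPM in G12V, and the part of such cells in the result was not tested.

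Set against each other, the clusters differed in their counts as follows. At 18q21, 1 of 7 members was DE and higher and 3 were DE and lower, and the median change was -1.20 on the log2 scale within a range from -6.11 to 5.65. At 6p25, 1 of 3 was DE and higher and 0 were lower, with a median of 0.35 and a range from 0.29 to 1.72. The difference of the medians was -1.55, and it lay between -2.21 and -0.81 when a library was left out. A separate measure, the difference of the clusters' median log2 CPM within each library, had an SD of 1.64 between replicates. These measures are unlike, and whether the clusters as wholes were separated was not tested.

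**Figure D2:**
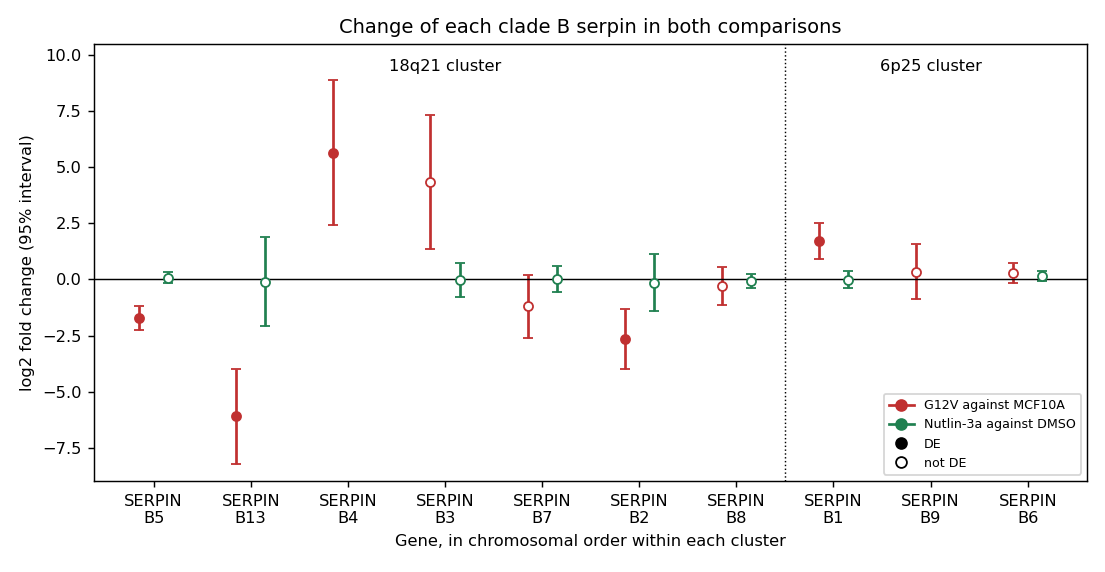
Log2 fold change of each tested member in both comparisons, with 95% intervals from the edgeR fit. Red is G12V against MCF10A, green is Nutlin-3a against DMSO, filled points are DE and open points are not, and SERPINB4 and SERPINB9 have no green point because they were not tested there. The red points run from -6.11 to 5.65 and the green points from -0.14 to 0.16.

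The order of the members by level was compared on the scale of CPM per kb of canonical transcript, an approximate correction for length. The annotation used in counting was not given, so the lengths that were counted may differ from these. In MCF10A, SERPINB5 was highest at 144 ± 17.99 (SD, n = 2), followed by SERPINB6 at 77.5 ± 1.96. SERPINB1 at 18.8 ± 1.96 and SERPINB8 at 18.7 ± 2.58 came next and did not differ beyond their spread. The other 6 were at 1.96 or less, and among them SERPINB13, SERPINB7 and SERPINB3 overlapped, as did SERPINB4 and SERPINB9.

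In G12V the order on this scale was another. SERPINB6 was highest at 94.8 ± 10.4, above SERPINB1 at 61.7 ± 27.7 and SERPINB5 at 43.9 ± 7.11, whose libraries overlapped. SERPINB8 at 15.3 ± 7.22, SERPINB3 at 7.997 ± 9.72 and SERPINB4 at 6.74 ± 8.01 overlapped in turn. SERPINB2, SERPINB7, SERPINB9 and SERPINB13 were at 0.310 or less.

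The genes around both clusters were examined as a measure of regional change. Within 1 Mb of the 18q21 members, 5 of 12 other genes were tested and 0 were DE, and the median of the 5 was 0.065 on the log2 scale. All 5 lie on the side of SERPINB5. The nearest, VPS4B, at a gap of 54.4 kb, had a log2 fold change of -0.69 (SE 0.19, edgeR adjusted p = 0.0749), and BCL2 had 1.20 (SE 0.30, edgeR adjusted p = 0.0555). Within 1 Mb of the 6p25 members, 14 of 20 genes were tested and 1 was DE, MYLK4, which was lower by -2.00 on the log2 scale (SE 0.45, edgeR adjusted p = 0.0424). The nearest tested neighbors there, WRNIP1 at 46.6 kb and LINC01011 at 15.8 kb, had log2 fold changes of -0.03 and 0.20.

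**Figure D3:**
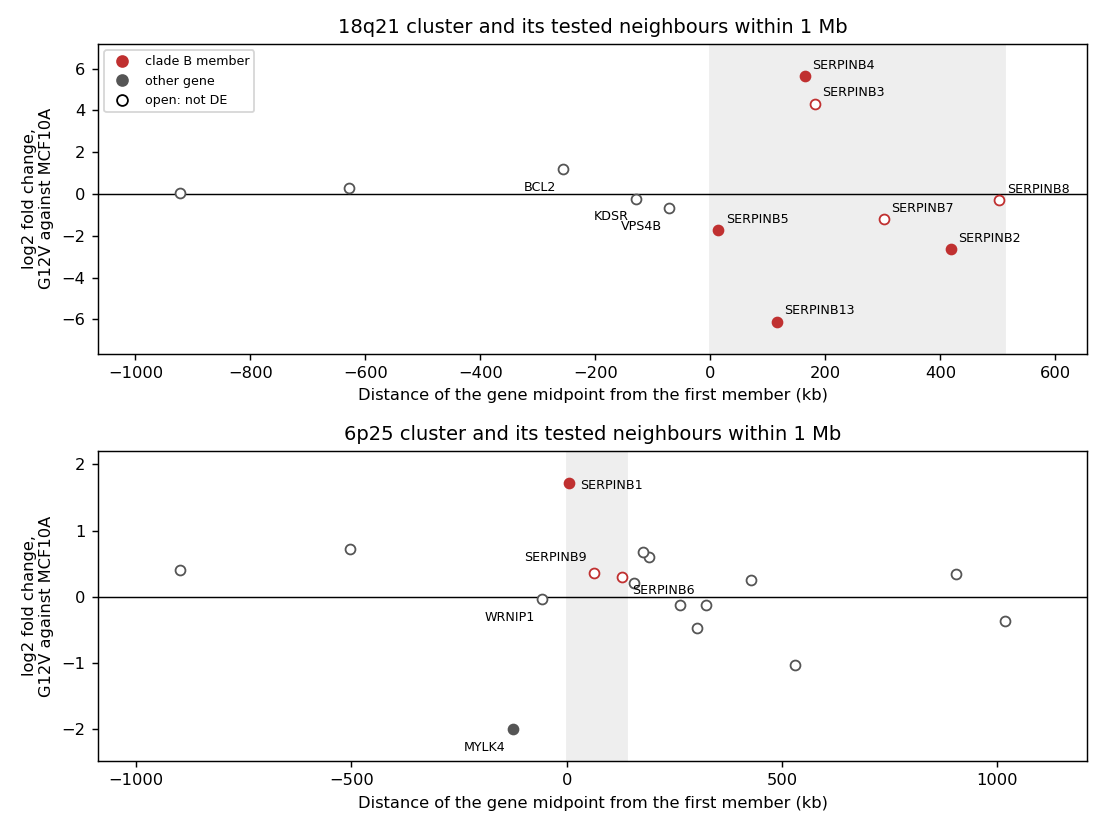
Log2 fold change in G12V against MCF10A (vertical axis) by the distance of each gene's midpoint from the first member of the cluster in kb (horizontal axis), for the 18q21 cluster above and the 6p25 cluster below. Red points are members, gray points are other tested genes within 1 Mb, filled points are DE and the shaded band is the cluster. The other genes at 18q21 lie between -0.69 and 1.20, whereas the members lie between -6.11 and 5.65.

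Proteases that clade B serpins are known to inhibit were measured in the same libraries. Of 14 counted genes, 7 were tested, 0 were DE and higher and 3 were DE and lower, and the median change was -0.52 on the log2 scale. Over all tested genes 5.01% were DE and higher, 5.95% were DE and lower, and the median was -0.0011. CTSV, which codes for a cathepsin closely related to cathepsin L, went from 11.3 and 7.22 CPM to 1.45 and 0.580 CPM, a log2 fold change of -3.17 (SE 0.53, edgeR adjusted p = 0.0173). PLAT and PLAU, which code for both plasminogen activators and so for the targets of SERPINB2, were lower by -1.79 (SE 0.42, edgeR adjusted p = 0.0475) and -1.42 (SE 0.27, edgeR adjusted p = 0.0256) on the log2 scale. CTSL, a target of SERPINB3 and SERPINB13, had a log2 fold change of 0.51 (edgeR adjusted p = 0.112), and FURIN, the target of SERPINB8, had -0.52 (edgeR adjusted p = 0.203). In each library, 5 of the 14 had at most 3 reads: CTSG, ELANE, GZMB, CMA1 and F2, which code for cathepsin G, neutrophil elastase, granzyme B, mast cell chymase and thrombin.

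The serpins outside clade B were mostly extracellular inhibitors. Of 23 counted genes, 10 were tested, 0 were DE and higher and 3 were DE and lower, with a median of 0.17. The shares over all tested genes were 5.01% higher and 5.95% lower. SERPING1, the inhibitor of the first complement component, had a log2 fold change of -3.69 (SE 0.76, edgeR adjusted p = 0.0317), SERPINI1, known as neuroserpin, had -2.58 (SE 0.43, edgeR adjusted p = 0.0169), and SERPINF1, an inhibitor of blood vessel growth, had -2.02 (SE 0.46, edgeR adjusted p = 0.0431).

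The comparison of Nutlin-3a with DMSO addressed the response of parental cells to p53 stabilization. Of the 10 members 8 were tested, and 0 were DE with edgeR, 0 had an unadjusted p under 0.05 and 0 were DE with DESeq2. Over all 13529 tested genes 0.170% were DE and 463 had an unadjusted p under 0.05. The groups did not overlap for 1 member, against 8.07% of all tested genes (3.70% in the direction of that member, higher). The members' log2 fold changes lay between -0.14 and 0.16, and their median absolute value was 0.07, against 0.10 over all tested genes.

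**Figure D4:**
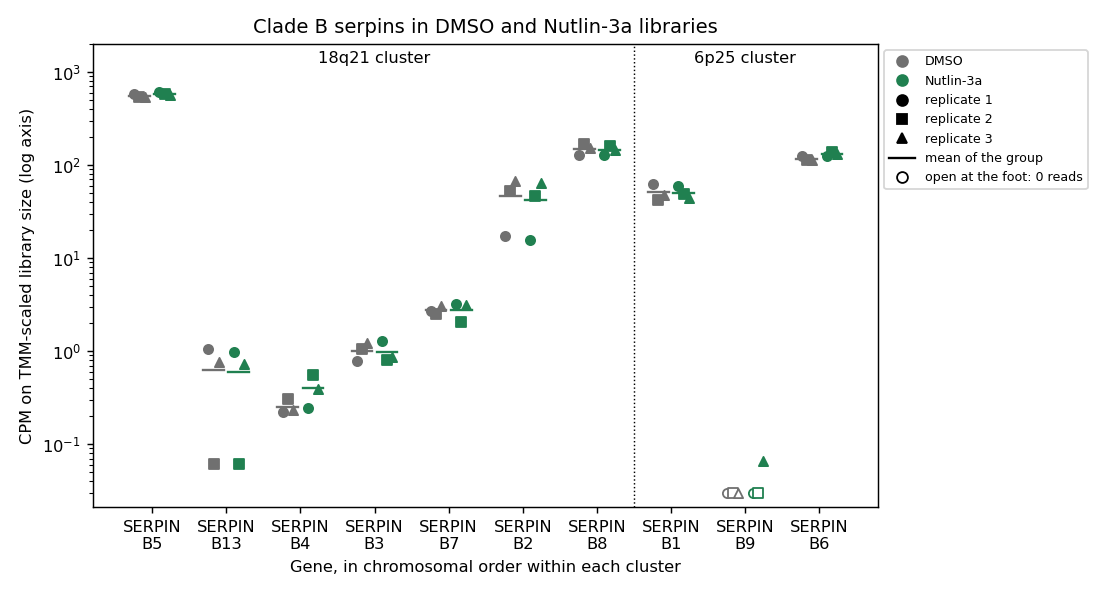
Level of each member in the 6 libraries of the Nutlin-3a experiment. The vertical axis is CPM on a log scale, points are libraries (circle, square and triangle for replicates 1, 2 and 3), lines are the means of the groups, and open points at the foot mark libraries with 0 reads. The groups lie side by side for every member, and the replicates of SERPINB2 and SERPINB13 spread widely in the same order in both groups.

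The abundant members gave narrow intervals. SERPINB5 had 575, 533 and 536 CPM in DMSO and 603, 577 and 564 CPM in Nutlin-3a, a log2 fold change of 0.08 (SE 0.10, 95% interval -0.14 to 0.31). SERPINB8 had 129, 170 and 152 CPM against 129, 162 and 144 CPM, a log2 fold change of -0.05 (SE 0.14, 95% interval -0.36 to 0.26). SERPINB1 had 62.3, 42.2 and 47.9 CPM against 59.4, 48.6 and 43.9 CPM (95% interval of the log2 fold change -0.40 to 0.39). The libraries of both groups overlapped for these 3 genes, but the replicate numbers pair the libraries. Within the pairs SERPINB5 was higher and SERPINB8 lower in Nutlin-3a in 3 of 3. For SERPINB8 the pair of replicate 1 was nearly level, at 129.2 CPM in DMSO and 128.8 CPM in Nutlin-3a. How many of all tested genes moved the same way in 3 of 3 pairs was not counted. With the replicate number as a block in edgeR the 95% intervals narrowed to -0.06 to 0.23 for SERPINB5, -0.21 to 0.11 for SERPINB8 and -0.19 to 0.20 for SERPINB1, and none of the 3 was DE.

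SERPINB6 was the member whose groups did not overlap. It had 125, 113 and 114 CPM in DMSO and 126, 137 and 131 CPM in Nutlin-3a, higher by 0.16 on the log2 scale (SE 0.10, 95% interval -0.06 to 0.38, or -0.01 to 0.33 with the replicate block). The unadjusted p in edgeR's quasi-likelihood test was 0.129 and the adjusted p was 1.00, so the difference did not pass the test.

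SERPINB2 varied between replicates more than between treatments. It had 17.4, 52.8 and 68.0 CPM in DMSO and 15.6, 46.6 and 63.4 CPM in Nutlin-3a, with replicate 1 lowest and replicate 3 highest in both groups. Its range within DMSO was 1.97 on the log2 scale, at the 98.4th percentile of all tested genes. Within each pair of the same number the Nutlin-3a library was the lower one, and the log2 fold change was -0.14 (SE 0.56, 95% interval -1.41 to 1.14). With the replicate block the interval was -0.32 to 0.04, and the gene was not DE.

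The sparse members allowed less. SERPINB13 had 19, 1 and 13 reads in DMSO and 16, 1 and 11 in Nutlin-3a, so replicate 2 was nearly without reads in both groups, and its interval ran from -2.08 to 1.88 on the log2 scale. SERPINB7 had 49, 41 and 53 reads against 52, 33 and 48 (log2 fold change 0.01, 95% interval -0.56 to 0.59). SERPINB3 had 14, 17 and 21 reads against 21, 13 and 13 (log2 fold change -0.04, 95% interval -0.80 to 0.72), and in this annotation it lies within the span of SERPINB11, a gene of the opposite strand with 0 reads. With the replicate block the intervals were -0.87 to 0.71 for SERPINB13, -0.42 to 0.44 for SERPINB7 and -0.75 to 0.69 for SERPINB3. Those of SERPINB13 and SERPINB3 still include changes beyond 0.5 on the log2 scale.

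SERPINB4 and SERPINB9 were not tested. SERPINB4 had 4, 5 and 4 reads in DMSO and 4, 9 and 6 in Nutlin-3a. SERPINB9 had 1 read in Nutlin-3a replicate 3 and 0 in the other 5 libraries, while it had between 10 and 19 reads in every library of the untreated experiment. The tables were made on different annotations and normalized separately, so no test was made between them. SERPINB2 was also at another level in the 2 experiments, with between 17.4 and 68.0 CPM in DMSO and 5.23 and 2.25 CPM in the untreated MCF10A libraries.

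By cluster, 0 of 6 tested members at 18q21 and 0 of 2 at 6p25 were DE after Nutlin-3a. The medians were -0.04 and 0.08. Their difference was -0.12, and it lay between -0.27 and 0.04 when a library was left out. The difference of the clusters' median log2 CPM within each library, an unlike measure, had an SD of 0.65 between replicates. The target proteases, 7 tested, and the serpins outside clade B, 9 tested, also had 0 DE genes. Among the neighbors within 1 Mb, log2 fold changes lay between -0.41 and 0.05 at 18q21 and between -0.87 and 0.10 at 6p25.

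The promoters of the clusters differed in base composition, a property that the choice of genes did not use. The 9 windows of the 7 genes at 18q21 held 0 to 16 CG dinucleotides with a median of 2, and the 6 windows of the 3 genes at 6p25 held 7 to 45 with a median of 33.5. These windows are 300 bases long and several belong to alternative starts of 1 gene, so they are not independent.

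**Figure D5:**
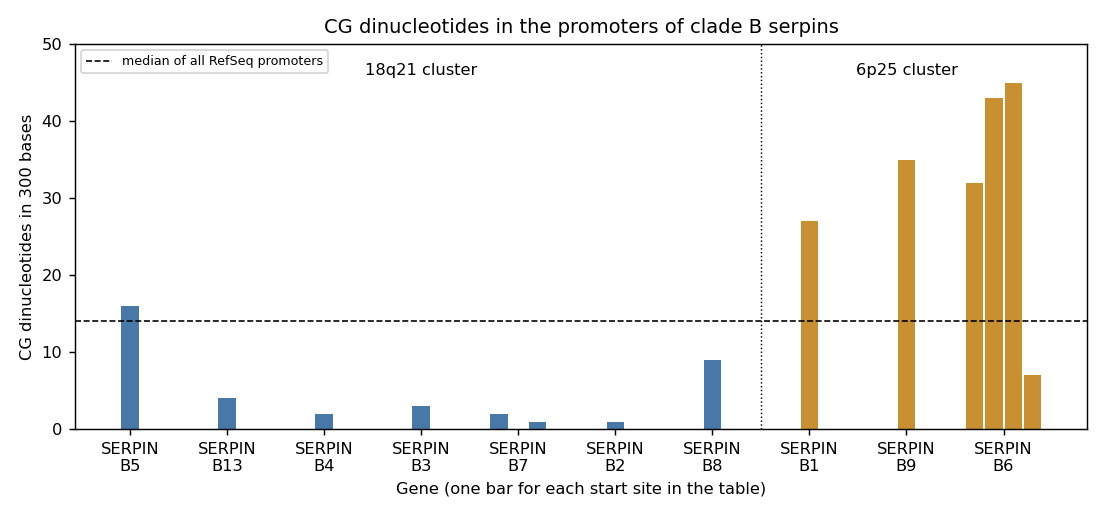
Number of CG dinucleotides in each RefSeq promoter window of 300 bases, by gene, with a bar for each start site and the median of all promoters, 14, as a dashed line. Windows at 18q21 (blue) reach 16, and those at 6p25 (ochre) reach 45. The start site of SERPINB7 without a bar has 0.

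The AP-1 motif TGANTCA, which reads the same on both strands apart from its central base, was found in 6 windows of 5 genes at 18q21 (SERPINB5, SERPINB13, SERPINB7, SERPINB2 and SERPINB8) and in 0 windows at 6p25, and 7.71% of all promoters hold it. Any central base was allowed, and the printed matches read TGACTCA in SERPINB13 but TGAATCA in SERPINB5 and SERPINB2. Of the 5 genes with the motif, 3 were DE and lower in G12V and 2 did not pass the test. Over all tested genes 5.95% were DE and lower. Of the members without the motif, SERPINB4 and SERPINB1 were DE and higher and the others did not pass the test. Whether the motif bears on these changes was not tested. The letters TATAAA, searched on both strands, stood in 4 windows at 18q21 and 2 at 6p25, and in 11.5% of all promoters. An exact p53 half-site, RRRCWWGYYY (R is A or G, W is A or T, Y is C or T), stood in none of the 15 windows. It stood in 6.63% of all promoters. Near matches were not searched, and the SERPINB5 window holds gaacatgttg, which departs from this pattern at its last base only. The search therefore does not show that a window lacks a p53 site. A match in such a window describes its letters only.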

How the data were processed

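Libraries of poly(A) RNA were aligned by the authors with TopHat and counted with HTSeq, and raw counts per gene were deposited, in one table for the untreated libraries and in another for the Nutlin-3a experiment. Annotations, strand setting and the handling of reads that match several places were not given in the sources used here. Starts in both tables count from 0 and are given from 1 here. The members, gene lists and tests were chosen with earlier results of these data known.

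Each table was fitted separately in R 4.3.3 with edgeR 4.0.16 (filterByExpr, TMM, quasi-likelihood F-test, Benjamini-Hochberg adjustment over all tested genes, prior count 0.125). Standard errors were obtained by dividing the size of a log2 fold change by the root of its F statistic. Genes named are all members, DE genes of the other serpins and of the target proteases, DE and nearest tested neighbors within 1 Mb, and check genes, while BCL2, CTSL and FURIN were named after their values were seen. For single genes, an exact permutation test cannot go below p = 0.333 with 2 against 2 libraries or 0.1 with 3 against 3. The script recovered known changes in simulated counts. Sequence work used RefSeq promoters and GENCODE canonical transcripts. Replicate numbers in the labels were checked by correlating the libraries' deviations from their group means. In the Nutlin-3a experiment same-numbered libraries correlated at 0.62, 0.60 and 0.64 and all others below 0, so the numbers pair them. Alternatives were DESeq2 1.42.0, the exact test of edgeR, other normalizations, filters and prior counts, a replicate block, and leaving out each library. Intervals on counts cover counting error only.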

Additional observations from a re-analysis of the deposited data

How the results depend on the processing

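In G12V against MCF10A, the number of DE members was 5 and ranged from 0 (without MCF10A replicate 1) to 6 (without G12V replicate 1) when a library was left out, and from 4 to 6 under the other alternatives. It was 4 where SERPINB4 was lost, and 6 with DESeq2, the exact test and the replicate block, which added SERPINB3 (adjusted p 0.0344, 0.00258 and 0.00311). With the block SERPINB4 had an adjusted p of 7.2e-06. With that block 4158 genes (28.9%) were DE. Same-numbered libraries correlated at 0.49 in this experiment and the others at -0.49. With only 2 libraries in each group these values mirror each other, so whether the numbers pair the libraries was not settled. The difference of the cluster medians, -1.55, lay between -2.21 and -0.81 when a library was left out, between -1.99 and -1.39 under the other alternatives, and was -2.07 without SERPINB3 and SERPINB4, an alternative added after seeing the data. Log2 fold changes that did not pass the test and changed sign when a library was left out were those of SERPINB8 (-0.88 to 0.12) and SERPINB9 (-0.14 to 0.72).

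In Nutlin-3a against DMSO, 0 members were DE under every alternative run, including the replicate block, with which 165 genes (1.22%) were DE and the members' adjusted p lay between 0.464 and 0.995. For SERPINB2 the block left the log2 fold change at -0.14 and lowered its SE from 0.56 to 0.083. When a library was left out, signs changed for SERPINB13 (-0.70 to 0.50), SERPINB3 (-0.28 to 0.12), SERPINB7 (-0.094 to 0.20), SERPINB2 (-0.57 to 0.26), SERPINB8 (-0.15 to 0.042) and SERPINB1 (-0.14 to 0.17). Signs also changed for SERPINB7 on library totals alone (-0.018), for SERPINB1 with the block (0.0022) and for SERPINB3 counted together with SERPINB4 (0.13). The cause of these shifts was not tested. In the Nutlin-3a experiment SERPINB4, SERPINB9 and SERPINB13 had under 20 reads per library.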
